A study of Mus musculus with 34 samples.

Results

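BATF binding was compared between regulatory T (Treg) cells with the R397W mutant of Foxp3 and an earlier set of wild-type Treg libraries, over all 9973 peaks of the BATF table that holds both. The members were the 4 libraries of these groups, 2 of R397W and 2 of earlier wild-type Treg cells, out of 34 samples of a mouse study of BATF, Foxp3 and IRF4 binding. The table also holds the 2 wild-type control libraries made for the R397W experiment and 2 libraries of conventional CD4 T (Tconv) cells. The question was which falls of BATF binding in R397W cells hold when the deeper earlier wild-type pair takes the place of those controls.

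Cells of every group were taken from the spleen and lymph nodes of C57BL6/J animals, and BATF was precipitated with antibody clone D7C5. The mice with mutant cells had 1 allele Foxp3R397W-IRES-hCD2 and 1 allele Foxp3-IRES-GFP, and the CD4+hCD2+GFP- cells are called R397W Treg cells here. In the controls the hCD2 allele was Foxp3WT-IRES-hCD2, with the same GFP allele and the same gate. The earlier Treg cells were CD4+hCD2+ cells of Foxp3-IRES-hCD2 mice, and the Tconv cells were the CD4+hCD2- cells of the same kind of mouse. Human CD2 on the surface marks cells that use the tagged Foxp3 allele. IRF4 libraries were of the same Treg and Tconv kinds as the earlier pair. Foxp3 libraries were of central (CCR7hiCD62LhiCD44lo), effector (CCR7loCD62Llo) and total CD4+hCD2+ Treg cells, and of total Treg cells from Foxp3-IRES-hCD2.Batf-/- mice. The earlier pair differs from the R397W cells in allele set, in gate and in sample set as well as in the mutation. It may also differ in sex, as described below at a Y-chromosome peak. These cannot be told apart in that comparison. The labels do not say that the 2 libraries of a group came from separate animals, so p-values measure the spread between these libraries, which may be technical.

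Foxp3 is the forkhead transcription factor that defines Treg cells, and the R397W change lies in its DNA-binding forkhead domain. BATF is a small leucine zipper factor of the AP-1 family. It has no activation domain of its own, pairs with JUN proteins on AP-1 motifs, and binds composite sites together with IRF4. In Treg cells BATF is known for its part in the formation of effector Treg cells, which leave the lymphoid circulation and carry strong suppressive functions.

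Of the 302 peaks (3.03% of 9973) that were lower in R397W cells than in the earlier pair, 6 overlapped a promoter, and 3 of these promoters are shown as the sequence in which binding changed. Each is the 250 bases before a gene's start from RefSeq (GRCm38.p6, the assembly of mm10), 5′ to 3′ on the gene's strand. The AP-1 motif TGANTCA, searched on both strands, is in capitals. The first belongs to Tnfrsf8, which encodes the TNF receptor family member CD30 (chromosome 4, 145315165 to 145315414, minus strand). The second belongs to the non-coding gene Gm38748 (chromosome 5, 146857606 to 146857855, plus strand). The third belongs to Atf3, a stress-induced AP-1 family factor (chromosome 1, 191183334 to 191183583, minus strand), and holds no match.
Tnfrsf8: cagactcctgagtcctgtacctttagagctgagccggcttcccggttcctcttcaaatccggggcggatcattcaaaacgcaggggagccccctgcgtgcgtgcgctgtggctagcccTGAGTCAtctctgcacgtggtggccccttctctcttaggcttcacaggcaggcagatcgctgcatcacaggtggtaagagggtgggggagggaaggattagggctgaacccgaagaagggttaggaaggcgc
Gm38748: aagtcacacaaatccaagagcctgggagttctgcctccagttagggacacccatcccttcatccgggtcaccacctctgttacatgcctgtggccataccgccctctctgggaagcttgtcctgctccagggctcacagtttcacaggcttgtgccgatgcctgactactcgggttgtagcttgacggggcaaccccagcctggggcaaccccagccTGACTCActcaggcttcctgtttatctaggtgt
Atf3: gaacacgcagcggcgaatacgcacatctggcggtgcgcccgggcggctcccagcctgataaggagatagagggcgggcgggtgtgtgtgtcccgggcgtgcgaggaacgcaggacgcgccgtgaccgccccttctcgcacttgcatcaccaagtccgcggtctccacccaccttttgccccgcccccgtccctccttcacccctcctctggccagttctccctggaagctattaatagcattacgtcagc
The match begins at base 119 in Tnfrsf8, 132 bp before the gene's start, and at base 218 in Gm38748. In all, 3 of the 6 promoter windows under lower peaks and 1 of the 5 under higher peaks held the motif. The third match under lower peaks, in the non-coding gene Gm29887 inside Dock2, begins at base 112 of its window. The peak covered only the first 45 bases of that window, so this match lies outside the peak. Over all promoters 2217 of 32851 windows (6.75%) held it, and 126 of the 2996 windows best covered by a BATF peak (4.21%). A match describes the letters only.

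At these promoters BATF was lower in both R397W libraries than in both earlier wild-type libraries. The Tnfrsf8 peak stood at 124 and 79.4 normalised reads in the earlier wild-type libraries and at 106 and 118 in the controls, against 12.0 and 49.9 in R397W cells. The R397W libraries lay below all 4 wild-type libraries but differed widely from each other (log2 fold change against the earlier pair -1.96, standard error (SE) 0.44, limma adjusted p = 0.022). The call was not kept by DESeq2 (adjusted p = 0.538) or by limma with no trend of spread on mean (adjusted p = 0.198). The peak at Gm38748, named after the nearest protein-coding gene Rasl11a (9889 bp), stood at 48.2 and 44.0 in the earlier pair and at 3.42 and 6.24 in R397W cells. The value in R397W library 1 was under that of 3 reads in this library. The Gm38748 peak was also lower than the controls (adjusted p = 0.00726). The Atf3 peak stood at 55.4 and 66.9 in the earlier pair, 52.4 and 48.4 in the controls and 18.8 and 27.0 in R397W cells. Its fall passed the limma test against the earlier pair (adjusted p = 0.037) and not against the controls (adjusted p = 0.114).

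Values throughout are the authors' normalised reads per peak, and fold changes are on the log2 scale of value plus 1. Peaks carry the name of the closest protein-coding gene up to 100000 bp away, and that gene may not be the one they act on. Positions are those of the deposited mm10 table, whose first base may be counted as 0 or 1. Exons and introns were not resolved. Reads in peaks were 789224 and 701127 in the earlier pair, 265351 and 655609 in R397W libraries 1 and 2, and 312181 and 144319 in the control libraries, here named a and b. With 3 reads taken as the floor, the limit was a value of 5.13 in R397W library 1 and 2.08 in R397W library 2. The median absolute log2 difference between the 2 libraries of a group was 0.30 in the earlier pair, 0.42 in R397W and 0.39 in the controls. A smaller share of cells with BATF at a site and less binding per cell cannot be told apart in these libraries. At Foxp3 itself the only peak stood at 66.1 and 66.3 in earlier Treg cells and at 2.11 and 0 in Tconv cells.

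Against the earlier wild-type pair, BATF was lower in R397W cells at 302 of 9973 peaks (3.03%) and higher at 57 (0.572%), by limma with an adjusted p under 0.05. Of the 302 lower peaks, 257 were also lower than the R397W controls, which is 2.58% of all peaks, 85.1% of the falls against the earlier pair and 32.0% of the 802 falls against the controls (8.04%). At an unadjusted p under 0.05, 1166 of the 9973 peaks were lower (11.7%) and 612 higher (6.14%), edgeR called 5.29% lower and 1.99% higher, and DESeq2 1.08% and 0.261%. These all-peak shares are the background for the counts by gene list. The 302 peaks lay near 242 genes and the 57 higher peaks near 51, and 219 of the 242 genes had 1 lower peak. Both comparisons use the same 2 R397W libraries, so the peaks in common are not independent evidence. Leaving out 1 library changed the counts strongly. Each such fit has 1 library in one arm, which is assumed to vary like the pair in the other arm. Lower peaks numbered 6 without earlier library 1, 25 without earlier library 2, 705 without R397W library 1 and 977 without R397W library 2. The falls common to both wild-type pairs then numbered 4, 24, 362 and 488, and they were 72 without control library b.

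At the 257 peaks common to both comparisons the median of the group means was 14.8 in R397W cells, 55.3 in the earlier pair, 70.6 in the controls and 5.15 in Tconv cells. The median log2 fold change was -1.92 against the earlier pair and -2.27 against the controls, beside -0.02 for all peaks in each case. These levels describe peaks chosen by them and carry no test. The Tconv libraries played no part in the choice. In 216 of the 257 peaks the R397W mean lay above the Tconv mean, beside 5169 of all 9973. Choosing peaks with high wild-type Treg values may partly set such counts. Both R397W libraries lay above both Tconv libraries at 153 of the 257 peaks, beside 2911 of all 9973. On the log2 scale the R397W mean was nearer to the Tconv mean than to the earlier Treg mean at 66.9% of them, beside 44.4% of all peaks, a share that choosing peaks far below the earlier pair partly sets.

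**Figure D1:**
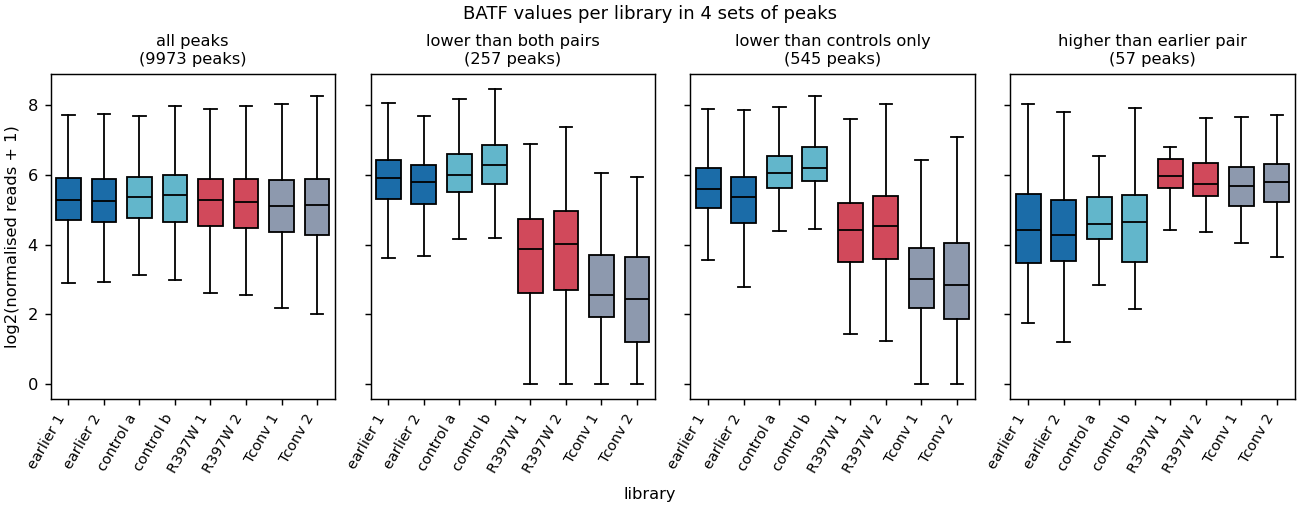
Box plots of log2 of normalised reads plus 1 in each of the 8 BATF libraries, for all peaks, for peaks lower than both wild-type pairs, for peaks lower than the controls only and for peaks higher than the earlier pair. Lines are medians, boxes span the quartiles and whiskers reach the farthest peak within 1.5 times the interquartile range. Over all peaks the libraries are level, while in the 257 peaks lower than both pairs the R397W medians lie between the wild-type Treg and the Tconv medians.

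The remaining 545 falls against the controls were smaller against the earlier pair, with a median log2 fold change of -0.98 against -1.64. There the earlier pair itself stood lower than the controls, with a median of group means of 43.8 against 70.2, at peaks chosen in part by the controls' values. At 373 of the 545 peaks the fall against the earlier pair reached an unadjusted p under 0.05, beside 11.7% of all peaks, though the shared R397W libraries place these peaks low in both comparisons, and at 6 the R397W mean on the log2 scale was above the earlier one. Of these 6, a peak 45739 bp from Icos, the gene of an inducible costimulatory receptor of effector Treg cells, stood at 126 and 96.8 in the controls, 50.0 and 42.0 in the earlier pair and 39.3 and 68.6 in R397W cells. The R397W values there overlapped those of the earlier pair and lay below both controls. At the other end, 45 peaks were lower than the earlier pair only, with medians of -1.74 against the earlier pair and -1.31 against the controls. One of them, within Gpc1, a cell surface proteoglycan gene, stood at 43.5 and 68.9 in the earlier pair, 22.2 and 17.3 in R397W cells and 7.71 and 13.8 in the controls. Of the 45, this was the peak at which R397W cells stood above the controls, and it was singled out after its values were seen.

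The difference between the wild-type pairs was itself tested. No peak passed in either direction (0 of 9973 lower, 0%, and 0 higher, 0%), by limma. At an unadjusted p under 0.05, 785 peaks were lower and 331 higher in the earlier pair, edgeR called 2 higher and 0 lower, and DESeq2 called 0. Without control library a, limma called 338 lower and 300 higher, and 20 in each direction without control library b, with the spread taken from the earlier pair alone. A count of 0 does not show that the pairs were alike. A single Y-chromosome peak, within Eif2s3y, a Y-linked translation factor gene (1010405 to 1010805), had 46 and 51 reads in the earlier pair and 53 and 77 in the Tconv libraries, and none in the R397W and control libraries. Its adjusted p between the wild-type pairs was 0.240, although reads were present in one pair and absent in the other. It counts among the 45 peaks lower than the earlier pair only, at least 8.44-fold lower than the earlier mean at the floor of 3 reads per library. The labels give no sex. Foxp3 lies on the X chromosome, and the R397W and control mice carried both an hCD2 and a GFP allele of it. The sex of the animals may thus differ from that of the earlier pair, and cannot be told apart from the mutation in that comparison. The part of this difference in the other falls was not tested. Among the 349 X-chromosome peaks 2 were lower, and with X and Y left out, which was chosen after this peak was seen, 303 peaks were lower and 264 common to both comparisons.

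**Figure D2:**
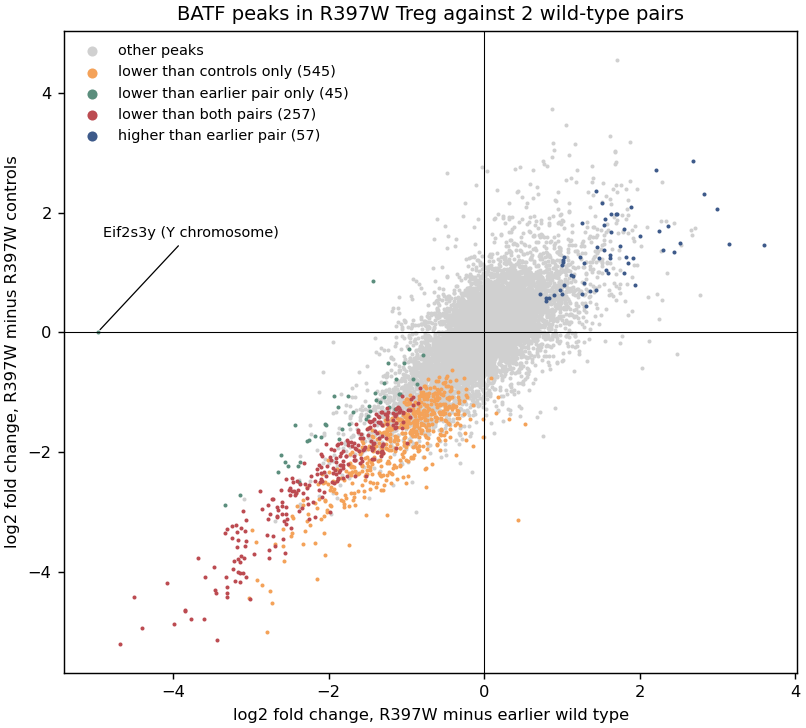
Log2 fold change of BATF in R397W Treg cells against the earlier wild-type pair (horizontal) and against the R397W controls (vertical) for each of 9973 peaks, coloured by the comparison in which the peak was called. The axes share the R397W libraries, which places points along the diagonal. The Eif2s3y peak lies at -4.97 on the horizontal axis and at 0.00 on the vertical axis.

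The strong peaks with the largest falls were near genes of several kinds. The one 24420 bp from Snx13, a sorting nexin gene of endosomal transport (chromosome 12, 35021327 to 35021727), stood at 114 and 133 in the earlier pair, 116 and 152 in the controls, 12.0 and 24.3 in R397W cells and 8.45 and 0.439 in Tconv cells. R397W cells lay far below all 4 wild-type Treg libraries and above both Tconv values (log2 fold change -2.78, SE 0.34, adjusted p = 0.000583). Gxylt2, a xylosyltransferase gene of Notch glycosylation, had a peak in its body at 126 and 108 in the earlier pair and at 32.5 and 20.8 in R397W cells (log2 fold change -2.12, SE 0.30). A peak within Atxn1, which encodes the nuclear protein ataxin 1, stood at 167 and 133 against 22.2 and 63.8, a log2 fold change of -1.95. The peak 40912 bp from Prune2 stood at 213 and 130 against 29.1 and 65.1, and that 65459 bp from Ppp2r5c, a regulatory subunit gene of protein phosphatase PP2A, at 105 and 80.7 against 17.1 and 34.0. No R397W value reached a wild-type Treg value at these peaks. All of them were also lower than the controls. DESeq2 did not call the peaks of Atxn1 (adjusted p = 0.237) and Prune2 (adjusted p = 0.139), and it called those of Snx13, Gxylt2 and Ppp2r5c. Without earlier library 1, 4 of the 40 called peaks of the naming rule kept their call, Snx13 among them, and 12 did without earlier library 2.

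Among peaks with a mean at or above the median of all peaks, 10 were named for the size of their falls in both comparisons, and 4 of them are described here. Within Cd82, a tetraspanin gene (chromosome 2, 93453083 to 93453483), values were 66.1 and 65.0 in the earlier pair, 95.6 and 69.2 in the controls and 3.42 and 24.3 in R397W cells (log2 fold change -2.65, SE 0.59, adjusted p = 0.021). R397W library 1 was at 2 of its reads there, under its floor, and both R397W values were far below the wild-type ones. DESeq2 did not call the Cd82 peak (adjusted p = 0.445). Within Dock2, the exchange factor gene for RAC in lymphocyte migration, values of 53.0 and 87.3 in the earlier pair stood against 8.55 and 24.3. Within Epn2, an endocytic adaptor gene, 73.2 and 69.6 stood against 12.0 and 11.8, with the R397W libraries in near agreement. The Tconv values at Epn2 were 7.75 and 8.35, below the R397W values. The peak with the largest fall of the 10 was 7115 bp from Qrfprl, at 111 and 57.8 against 17.1 and 3.46 (log2 fold change -3.18, SE 0.56, adjusted p = 0.00746). DESeq2 did not call the Qrfprl peak (adjusted p = 0.12), and it called those of Dock2 and Epn2.

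Peaks without any R397W read were looked up for that reason, and their falls are lower bounds. A peak within Ciapin1, a gene of cytosolic iron-sulfur protein assembly, stood at 23.2 and 26.3 in the earlier pair and at 37.0 and 34.6 in the controls. It was at least 6.86-fold lower in R397W cells, at the floor of 3 reads per library. The peak within Nav2, a neuron navigator gene, was at least 5.99-fold lower, and that 96577 bp from Col12a1, a collagen gene, at least 5.55-fold lower. In all, 4 of the 257 peaks had 0 reads in both R397W libraries and 24 had 3 or fewer in both. The median at the 257 peaks was 8 and 22 reads in R397W libraries 1 and 2, and 99 and 83 in the earlier pair.

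Rora, which encodes the nuclear receptor ROR-alpha of T helper 17 and tissue Treg programmes, was the gene with the most lower peaks, and it was picked out by that count. Of its 12 peaks 5 were lower than the earlier pair, 3 of them also lower than the controls, and 7 were lower than the controls. The largest fall was at 69339820 to 69340220 on chromosome 9, where the earlier pair stood at 41.1 and 53.2, the controls at 61.7 and 72.6 and R397W cells at 1.71 and 4.85 (log2 fold change -3.58, SE 0.61, adjusted p = 0.00679). R397W library 1 was at 1 of its reads at that largest fall, under its floor, so the size of the fall is uncertain. The neighbouring peak at 69340431 stood at 61.9 and 72.2 in the earlier pair and at 12.0 and 11.1 in R397W cells. Both peaks were low in Tconv cells, at 2.11 to 5.71. By contrast, the Rora peak at 69034532, at 111 and 178 in the earlier pair, 56.4 and 58.2 in R397W cells and 56.3 and 80.0 in Tconv cells, was lower than the earlier pair only (adjusted p against the controls 0.0796). R397W and Tconv cells overlapped there. Anxa11, Lclat1 and Plcb4 each had 3 lower peaks, and all 3 of Lclat1 were also lower than the controls.

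In the Treg core list, which holds genes that mark Treg cells at all stages, 1 of 25 peaks was lower (4%, near the 3.03% of all peaks) and 0 higher, with a median log2 fold change of -0.41 (-0.02 over all peaks). An unadjusted p under 0.05 was reached by 5 lower (beside 11.7% of all peaks) and 0 higher peaks, edgeR called 2 lower and 0 higher, and DESeq2 1 lower and 0 higher. The lower one was 44269 bp from Nrp1, the gene of the semaphorin receptor neuropilin 1 that marks thymic Treg cells (chromosome 8, 128549745 to 128550145). BATF there stood at 286 and 196 in the earlier pair, 285 and 349 in the controls, 94.0 and 67.9 in R397W cells and 38.7 and 39.6 in Tconv cells. R397W cells lay between both wild-type pairs and Tconv cells, without overlap (log2 fold change -1.55, SE 0.24, adjusted p = 0.00388). Without earlier library 1 its adjusted p was 0.0806. The peak within Foxp3 (chromosome X, 7583904 to 7584304) stood at 42.7 and 83.9 in R397W cells, on both sides of the earlier pair (log2 fold change -0.14, SE 0.30, adjusted p = 0.865). The controls stood above both R397W values there, at 105 and 96.8, without passing (limma adjusted p = 0.177). The peak near Ctla4, an inhibitory receptor gene, was at 18.8 and 20.1 against 24.4 and 34.8 (adjusted p = 0.564). The peak 65382 bp from Ikzf2, the Helios gene, stood at 22.2 and 35.3 in R397W cells, 45.2 and 44.0 in the earlier pair and 74.0 and 72.6 in the controls. It passed against the controls and not against the earlier pair (adjusted p = 0.378).

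Of the 61 peaks of effector Treg genes, 6 were lower (9.84%, beside 3.03% of all peaks) and 0 higher, and all 6 were lower than the controls as well. The median log2 fold change was -0.49 against the earlier pair and -1.08 against the controls. At an unadjusted p under 0.05, 19 were lower (beside 11.7% of all peaks) and 1 higher, edgeR called 13 lower (5.29% of all) and 0 higher, and DESeq2 1 lower and 0 higher. The peak 21436 bp from Bhlhe40, a basic helix-loop-helix repressor gene, stood at 139 and 99.1 in the earlier pair, 120 and 135 in the controls and 53.0 and 45.0 in R397W cells (log2 fold change -1.25, SE 0.26, adjusted p = 0.015). In Nfil3, a leucine zipper factor gene, 129 and 124 stood against 56.4 and 74.8 (log2 fold change -0.95, SE 0.24, adjusted p = 0.034). Near Tigit, an inhibitory receptor gene, 66.1 and 84.0 stood against 25.6 and 36.7, and the Tconv values of 33.8 and 32.5 lay between the R397W values. The peak 375 bp from Itgb8, the integrin chain gene that activates TGF-beta, stood at 51.8 and 61.7 against 13.7 and 25.6 (adjusted p = 0.039). The peak 50998 bp from Dusp4, a MAP kinase phosphatase gene, stood at 97.0 and 100 against 44.5 and 55.4.

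Il10, the gene of the suppressive cytokine interleukin 10, had 7 peaks and 1 of them was lower than both wild-type pairs. This peak within the gene (chromosome 1, 131022556 to 131022956) stood at 110 and 106 in the earlier pair, 103 and 145 in the controls, 44.5 and 50.6 in R397W cells and 14.8 and 12.7 in Tconv cells. R397W cells lay between the groups (log2 fold change -1.17, SE 0.25, adjusted p = 0.018). At the strongest Il10 peak, 8946 bp from the gene, R397W values of 164 and 276 overlapped the 302 and 221 of the earlier pair (adjusted p = 0.594). Maf is an AP-1 related factor gene of interleukin 10 producing cells. At its strongest peak 68.4 and 74.1 in R397W cells overlapped 87.5 and 64.3 in the earlier pair. At that of Prdm1, the BLIMP1 gene, 6.84 and 14.6 overlapped 17.9 and 11.2. The controls lay above the R397W values, at 91.0 and 138 for Maf and at 17.0 and 24.2 for Prdm1. Neither passed against the controls (limma adjusted p = 0.177 and 0.442). Within Gata3, the T helper 2 factor gene, R397W values were 17.1 and 29.8. They lay below the 54.2 and 55.8 of the earlier pair, but that test was not passed (adjusted p = 0.071). The controls stood at 74.0 and 72.6, and the fall passed against them (limma adjusted p = 0.015). Of the 32 genes looked up singly, 25 had a peak.

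**Figure D3:**
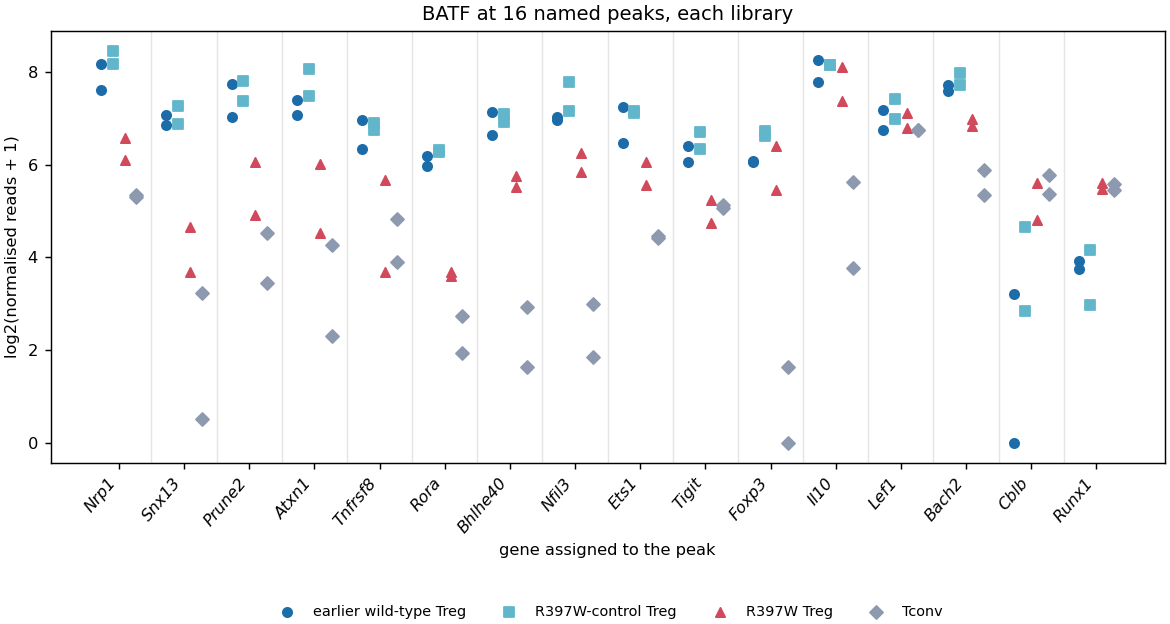
Log2 of normalised reads plus 1 in each library at 16 named peaks, with earlier wild-type Treg as circles, R397W-control Treg as squares, R397W Treg as triangles and Tconv as diamonds. At Nrp1, Snx13, Prune2, Atxn1, Tnfrsf8, Rora, Bhlhe40, Nfil3, Ets1 and Tigit the triangles lie below the circles and squares; at Foxp3, Il10 and Lef1 they overlap with the circles, and at Cblb and Runx1 they lie above them.

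Of the 91 peaks of central or naive T cell genes, 3 were lower (3.30%, near the 3.03% of all peaks) and 2 higher (beside 0.572% of all), with a median log2 fold change of 0.23. At an unadjusted p under 0.05 the counts were 9 lower (11.7% of all peaks) and 16 higher (6.14% of all), edgeR called 4 lower and 5 higher, and DESeq2 1 and 2. Within Ets1, a factor gene of naive T cells that also partners Foxp3, BATF stood at 151 and 87.3 in the earlier pair, 137 and 142 in the controls and 46.2 and 65.8 in R397W cells (log2 fold change -1.05, SE 0.28, adjusted p = 0.046). Tgfbr2, the TGF-beta receptor gene, had a peak 32804 bp away at 28.6 and 22.3 against 3.42 and 4.85 (adjusted p = 0.042). R397W library 1 was at 2 of its reads there, under its floor. DESeq2 (adjusted p = 0.115) and voom (adjusted p = 0.072) did not call this peak, while edgeR did. The strongest Tgfbr2 peak, at 41.7 and 64.3 against 88.9 and 74.8, did not pass. Foxp1, a forkhead gene of quiescent T cells with 18 peaks, had 1 lower than both pairs, at 195 and 199 in the earlier pair and 99.2 and 106 in R397W cells. Another peak within Foxp1 (chromosome 6, from 99420612) was higher, at 246 and 231 in R397W cells against 151 and 124, and the Tconv values were 139 and 190. The controls there stood at 210 and 131, and the rise did not pass against them (adjusted p = 0.210). The strongest of the 12 peaks of Lef1, a factor gene of naive T cells, stood at 137 and 110 against 107 and 144. Near Satb1 and Tcf7, other such factor genes, the strongest peaks had adjusted p-values of 0.575 and 0.834.

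Bach2, which encodes a repressor that competes with AP-1 factors and keeps T cells in a resting state, had 14 peaks. A peak 71939 bp away was higher, at 56.4 and 33.3 in R397W cells against 10.1 and 11.8 in the earlier pair, with 34.5 and 27.2 in Tconv cells. R397W and Tconv values overlapped there, and control library a at 23.1 and b at 3.46 were apart from each other. The rise did not pass against the controls (limma adjusted p = 0.073). The strongest Bach2 peak stood at 113 and 126 against 209 and 192 without overlap, with an adjusted p of 0.051 against the earlier pair and 0.017 against the controls. Over the AP-1, BATF and IRF factor list, 1 of 43 peaks was lower (2.33%, beside 3.03% of all), that of Atf3, and 1 higher (0.572% of all), that of Bach2. At an unadjusted p under 0.05 there were 8 lower and 2 higher, edgeR called 5 lower and 1 higher, and DESeq2 0 lower and 1 higher. At the Batf and Irf4 genes themselves the strongest peaks did not pass (adjusted p = 0.832 and 0.497).

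T helper lineage genes had 5 lower peaks of 39 (12.8%, beside 3.03% of all peaks), all within Rora, and 0 higher, with a median log2 fold change of -0.48. At an unadjusted p under 0.05 there were 15 lower (beside 11.7% of all peaks) and 1 higher, edgeR called 9 lower and 0 higher, and DESeq2 3 lower and 0 higher. T cell receptor and costimulation genes had 2 lower (2.60%, beside 3.03% of all peaks) and 3 higher (0.572% of all) of 77. Without adjustment there were 3 lower and 8 higher at a p under 0.05, edgeR called 2 lower and 6 higher, and DESeq2 0 in each direction. The lower ones were those of Dusp4 and Zap70, the T cell receptor kinase gene, where 67.9 and 50.5 in the earlier pair stood against 13.7 and 30.5 (adjusted p = 0.0495). Zap70, Itgb8, Cd28, the higher Foxp1 peak and the Gm38748 promoter peak were named after their values were seen. Foxp3 partner factor genes had 2 lower (2.41%, beside 3.03%) and 2 higher (beside 0.572%) of 83. Their unadjusted counts were 9 lower and 11 higher, edgeR called 3 lower and 6 higher, and DESeq2 1 in each direction. Peaks of B cell markers (2), myeloid markers (3), CD8 and NK cell markers (8) and housekeeping genes (11) gave 0 lower and 0 higher calls by limma. An unadjusted p under 0.05 was reached by 0, 2, 1 and 1 of these as lower and by 0 as higher, edgeR called the same numbers and DESeq2 0. The myeloid median was -1.63, from peaks near Cebpa and Spi1, both factor genes of myeloid cells. The Cebpa peak stood at 6.84 and 4.16 in R397W cells, 25.6 and 24.9 in the earlier pair, 35.5 and 34.6 in the controls and 1.41 and 2.64 in Tconv cells. BATF binding does not measure whether such cells were present.

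At the 57 peaks that were higher in R397W cells the median of group means was 57.8 in R397W, 19.2 in the earlier pair, 23.1 in the controls and 50.0 in Tconv cells, and at 55 of the 57 (96.5%, beside 44.4% of all peaks) R397W was nearer to Tconv than to the earlier pair. Since the peaks were chosen for R397W values far above the earlier pair, that share is partly set by the choice. Of these peaks 23 (40.4%) were also higher than the controls. A large rise was 23816 bp from Cblb, the gene of a ubiquitin ligase that restrains T cell activation, at 47.9 and 27.0 against 8.33 and 0 (log2 fold change 3.60, SE 0.83, adjusted p = 0.024). The controls there were at 6.17 and 24.2, the Tconv libraries at 54.2 and 40.4, and the rise did not pass against the controls (adjusted p = 0.172). The size of the Cblb rise rests on the earlier library at 0: the log2 fold change was 1.99 without earlier library 2 (adjusted p = 0.283) and 5.21 without earlier library 1 (adjusted p = 0.00937), and the DESeq2 adjusted p was 0.683. Within Runx1, a runt-domain partner gene of Foxp3, R397W values of 47.9 and 43.7 stood against 14.3 and 12.5 in the earlier pair, 17.0 and 6.92 in the controls and 47.2 and 43.1 in Tconv cells. R397W and Tconv cells overlapped at Runx1 and both lay above all wild-type Treg libraries (log2 fold change 1.70, SE 0.44, adjusted p = 0.037). Near Cd28, the main costimulatory receptor gene, 15.4 and 27.7 stood against 2.38 and 3.28, with controls at 12.3 and 3.46 (adjusted p against the controls 0.261). Within Lrrfip1, 97.5 and 92.2 stood against 44.1 and 48.6 and against 43.2 and 38.0 in the controls. Of the 4 peaks of Lrrfip1, 1 other was called the opposite way, lower than the earlier pair only. The count of rises depended on the scaling and the method: quantile normalisation gave 329 lower and 124 higher, edgeR 528 and 198, and limma voom 403 and 206.

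The 257 falls common to both comparisons were mostly away from gene starts. Within 1000 bp of a start lay 8 of them (3.11%), beside 33.2% of all peaks. Among the 57 rises 5.26% lay there, and among the 45 falls against the earlier pair only 11.1%. Among the 545 falls against the controls only the share was 3.30%, so it was not particular to the common falls. The share called lower differed little with the mean value of a peak over the 8 BATF libraries. It was 3.49% in the lowest 25% of peaks and 2.73% in the highest 25%. That mean includes the R397W and Tconv libraries, which were low at the common falls, so it does not give the wild-type Treg level.

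Peaks of the other factors, measured in libraries that took no part in the choice, overlapped the 257 peaks by 1 bp or more at 121 (47.1%) for Foxp3 and at 183 (71.2%) for IRF4. Over all BATF peaks these shares were 22.2% and 40.7%. Among peaks over 1000 bp from a gene start they were 47.8% and 71.5% for the 257, and 29.2% and 45.8% for all. Both factors overlapped 102 of the 257 (39.7%), beside 14.7% of all. The 545 falls against the controls only overlapped Foxp3 at 37.2% and IRF4 at 69.9%. For the 45 falls against the earlier pair only the shares were 24.4% and 55.6%. The 57 rises overlapped Foxp3 at 42.1% and IRF4 at 56.1%. The shares were not tested, since peaks are not replicates, and choosing peaks by their BATF values may partly set them.

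**Figure D4:**
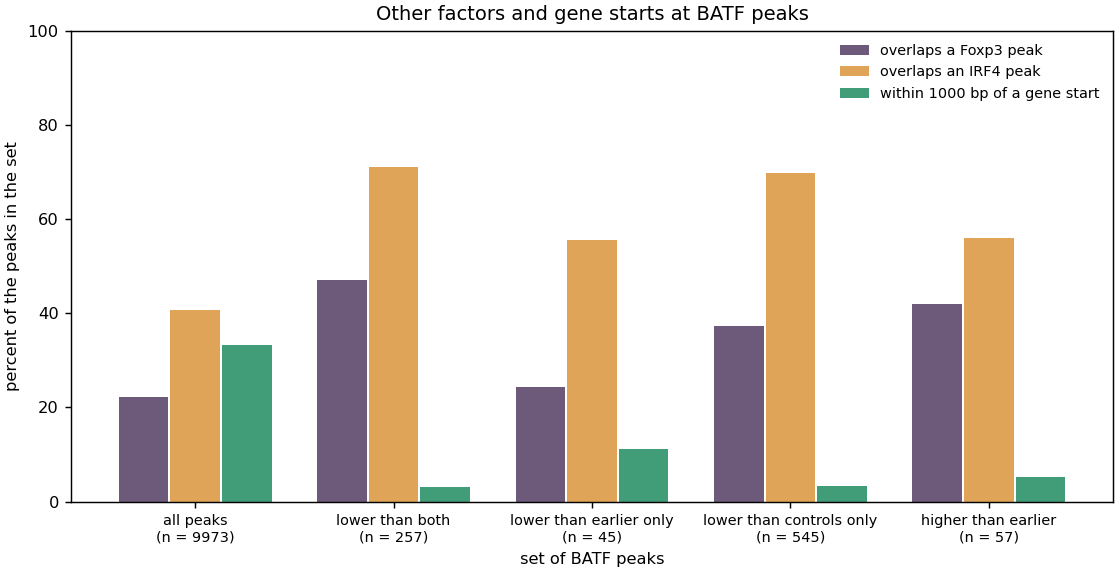
Percent of BATF peaks in 5 sets that overlap a Foxp3 peak, overlap an IRF4 peak or lie within 1000 bp of a gene start. In the 257 peaks lower than both wild-type pairs the bars reach 47.1%, 71.2% and 3.11%, and in all 9973 peaks 22.2%, 40.7% and 33.2%.

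IRF4 binding at the shared sites was also compared between Treg and Tconv cells. At 163 of the 183 IRF4 peaks that overlapped the common falls (89.1%) IRF4 was higher in Treg than in Tconv cells, with a median log2 fold change of 1.93. Over the 4061 BATF peaks that overlap an IRF4 peak, 926 (22.8%) were higher and 384 lower, with a median of 0.03. Among the falls against the controls only, IRF4 was higher at 292 of 381 (76.6%). Among those against the earlier pair only, it was higher at 20 of 25 (80%), so this was not particular to the common falls. At the 32 rises with an IRF4 peak IRF4 was lower in Treg cells at 20, with a median of -1.19. Foxp3 was higher in effector than in central Treg cells at 98 of the 121 common falls with a Foxp3 peak (81.0%), with a median log2 fold change of 1.83. Over all 2215 such BATF peaks it was higher at 493 (22.3%) and lower at 301. Among the falls against the controls only it was higher at 149 of 203 (73.4%), and among those against the earlier pair only at 8 of 11 (72.7%). Foxp3 binding was lower in Batf knockout than in wild-type Treg cells at 52 of the 121 (43.0%), beside 171 of 2215 (7.72%). Of the 203 falls against the controls only with a Foxp3 peak, 60 (29.6%) were lower in the knockout. These calls are from limma fits of the Foxp3 and IRF4 tables and are descriptions of the sets, not tests of them. Choosing peaks with high wild-type Treg BATF values may partly set these shares. The shares over all BATF peaks were not limited to peaks with more BATF in Treg than in Tconv cells, or to peaks away from gene starts.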

How the data were processed

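BATF, Foxp3 and IRF4 binding was measured by chromatin immunoprecipitation and sequencing. The deposited values are normalised signal per peak, with 1 peak list per table. The submitters' processing notes name DiffBind 3.12.0, edgeR 3.38.4, MACS2 2.2.7.1 and Bowtie2 2.4.1, and the genome build mm10. Their roles, order and filters are not given in the sources used here. Divided by the value of 1 read in its library, 100% of values in the second BATF table came out whole within 0.01, so reads were recovered for the count tests. Reads outside peaks and sequencing depth are unknown, and a change common to most peaks would be scaled away. The 402 intervals shared with the first BATF table held equal reads in the earlier pair, so it is the same pair of libraries and adds no replicate. Columns of the R397W controls give their group but not which sample. All sample columns were mapped, and input libraries were not used here.

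In R 4.3.3, limma 3.58.1 was fitted over all peaks to the 4 libraries compared, on log2(value + 1), with the spread allowed to follow the mean (trend). Tests were two-sided with Benjamini-Hochberg adjustment, and an adjusted p under 0.05 was called. On recovered reads, edgeR 4.0.16 with TMM called 528 lower and 198 higher and DESeq2 1.42.0 called 108 lower and 26 higher. The scripts were tested on simulated data. Genes and promoters are from RefSeq GRCm38.p6, the assembly of mm10, and 9613 of 9973 peaks (96.4%) were assigned within 100000 bp. The named peaks are the strongest peak of each of 32 genes, the 8 largest falls and 8 largest rises among called peaks whose mean reached the 75th percentile, the 10 largest falls common to both comparisons above the median, the 4 strongest peaks called in 1 comparison only, and up to 3 genes of each of 11 lists by smallest p. A result that the rule names is not reported here. Peaks outside this rule are marked where they were picked by their values. The members, lists and rules were chosen with earlier results of these data known.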

Additional observations from a re-analysis of the deposited data

How the results depend on the processing

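The counts depended strongly on the alternative. For R397W against the earlier pair, lower peaks numbered 302, and 58 with no trend, 528 with edgeR, 108 with DESeq2, 170 with all 8 libraries in 1 fit and 4 with reads thinned at random to the shallowest library (1 draw). Higher peaks numbered 57, and 100 at a pseudocount of 5, 124 with quantile normalisation, 88 scaled to total reads, 10 with no trend, 198 with edgeR, 26 with DESeq2, 206 with voom and 0 thinned. Leaving out 1 library gave 6 to 977 lower and 0 to 437 higher.

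For R397W against the controls, 802 lower became 482 with quantile normalisation, which moved the all-peak median on the log2 scale from -0.02 to 0.13, 160 with no trend, 308 with DESeq2 and 0 thinned. The 61 higher became 93 at a pseudocount of 5, 111 scaled to total reads, 11 with no trend, 131 with edgeR, 7 with DESeq2, 92 with voom, 219 with all 8 libraries and 0 thinned. Leaving out 1 library gave 124 to 610 lower and 1 to 182 higher. Between the wild-type pairs, 0 higher became 1 with no trend, 2 with edgeR and 1 with all 8 libraries, and leaving out 1 library gave 0 to 338 lower and 0 to 300 higher. The 257 common falls became 51 with no trend, 425 with edgeR, 88 with DESeq2, 165 with all 8 libraries, 0 thinned and 4 to 488 with 1 library left out. Thinning and leaving out a library use fewer reads or libraries, and for the other settings the cause was not tested.

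With the replicate number as a block, 493 were lower and 123 higher against the earlier pair. The numbers are not stated to pair samples, and deviations of the libraries numbered 1 correlated at -0.02 over peaks. Controls carry no usable number, so their comparisons had no block.

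Of 40 named peaks that were called, 2 kept the call under every alternative (Snx13 and a peak on chromosome 18 without an assigned gene), and none reversed. All 40 kept it with edgeR, 4 without earlier library 1, 12 without earlier library 2, 37 without R397W library 1 and 38 without R397W library 2. DESeq2 kept 17 of the 40 calls, and limma with no trend kept 6. Of 37 not called, 11 passed under some alternative. All 302 lower peaks were among the 528 of edgeR, and all 108 of DESeq2 were among the 302. With only peaks in the gene body or up to 10000 bp away, the Treg core list lost its 1 call (17 peaks), and effector Treg genes had 3 lower of 30 peaks. Overlap with other factors at a reciprocal 50% was 47.1% and 71.2% for the common falls, and 21.7% and 40.0% for all peaks. Thinning to the 265351 reads of R397W library 1 left 4 of the 302 lower peaks.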
